A study of Mus musculus with 31 samples.

Results

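The 10 genes described here encode proteins that shape the endoplasmic reticulum (ER): Reep3, Reep4, Reep5, Reep6, Rtn3, Rtn4, Atl2, Atl3, Lnpk and Ckap4. They were listed by symbol, around the observation in these same data that Reep5 was lower in the liver of 1 group of mice (HFLF) and not in fat. All 10 were present among the 13677 genes counted in liver and the 15987 counted in epididymal white fat (eWAT), and 12735 genes were counted in both. RNA sequencing was done on 31 libraries from 24-week-old wild-type C57BL/6 males of the F1 generation. Every mouse, controls included, ate chow until week 6 and a low-fat diet for the next 18 weeks. The samples carry 3 diet tags, LFD, HFD and HFLFD, called LF, HF and HFLF below. Since all these mice ate the same food, the tag is taken here to name what the paternal line ate. That reading comes from the title of the series, and the sample labels themselves do not state it. LF had 4 livers and 4 fat pads, HF had 5 livers and 6 fat pads, and HFLF had 6 of each. A liver and a pad share arm and number in 14 cases and may come from 1 mouse. The main tests between tissues treated them as independent. The labels do not say whether the mice of an arm came from separate fathers or litters, so each p-value measures only the spread between these samples.

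The ER is one continuous membrane made of flat sheets and narrow tubules that meet at junctions. Proteins with hairpin segments wedged into the outer leaflet bend it into tubules: the REEP and reticulon families do this. Atlastins are GTPases that fuse tubules with each other, lunapark (Lnpk) sits at the junctions, and Ckap4 is a coiled-coil spacer of the sheets. Hepatocytes hold much rough ER for secreted proteins and much smooth ER for lipid and drug metabolism, while adipocytes use ER membrane in lipid droplet formation.

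Promoter windows are shown for a pair of members. RefSeq on GRCm38.p6 has promoter windows for 6 of the 10 genes, and the windows of Rtn3 and Atl2 are printed: Rtn3 because its level varied most like that of Reep5 among the members, and Atl2 because it was among the 3 members higher in liver than in fat. Each run holds the 250 bases before the annotated start, from 5′ to 3′ on the gene's own strand. Rtn3 lies at chr19:7483292-7483541 on the minus strand and Atl2 at chr17:79896124-79896373 on the minus strand. Capitals mark 5 motifs searched on both strands: the CCAAT box, the GC box (GGGCGG), the core of the unfolded protein response element (ACGTG), the distal piece of the ER stress element (CCACG) and the TATA box (TATAAA).
Rtn3: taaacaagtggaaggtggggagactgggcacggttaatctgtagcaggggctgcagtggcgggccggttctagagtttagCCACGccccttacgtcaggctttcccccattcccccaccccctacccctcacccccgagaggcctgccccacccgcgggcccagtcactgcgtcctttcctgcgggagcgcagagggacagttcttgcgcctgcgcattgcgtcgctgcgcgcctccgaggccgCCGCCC
Atl2: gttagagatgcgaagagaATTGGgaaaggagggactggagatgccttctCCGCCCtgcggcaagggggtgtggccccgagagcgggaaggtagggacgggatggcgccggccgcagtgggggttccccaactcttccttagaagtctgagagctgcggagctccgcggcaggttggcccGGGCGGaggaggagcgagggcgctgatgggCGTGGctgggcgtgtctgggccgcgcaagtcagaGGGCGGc
The Rtn3 window held GGGCGG once and CCACG once. The Atl2 window held CCAAT once, GGGCGG in 3 places and CCACG once. These matches describe letters only: CCAAT was found in 33.8%, GGGCGG in 32.7%, CCACG in 28.3%, ACGTG in 16.6% and TATAAA in 12.4% of all 32851 mouse promoter windows of this length. ACGTG and CCACG can overlap by sharing bases. The GC content was 67.2% for Rtn3 and 68.0% for Atl2, against a median of 52.4%.

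Depth and tissue identity were as follows. Counts summed to between 9225373 and 17268415 per liver library and between 9278083 and 27230205 per eWAT library. Levels are given as CPM (counts scaled to a common library size), scaled by the trimmed mean of M-values (TMM) within each tissue unless stated otherwise. The hepatocyte gene Alb stood at 46648 to 83076 CPM in liver and at 11.9 to 207.5 CPM in eWAT. In eWAT, summed testis germ cell transcripts reached 115.5 CPM in HF and 23.2 CPM in LF, against at most 1.21 CPM in HFLF. Summed B cell transcripts reached 359.8 CPM in LF and 143.8 CPM in HF, against at most 13.5 CPM in HFLF. Pads called rich in testis transcripts below were LF 3, LF 6, HF 2 and HF 6. Those called rich in B cell transcripts were LF 2, HF 3 and HF 5. Without the testis-rich pads, only LF pads 2 and 5 stood for LF. Whether a shift then came from the testis transcripts or from the loss of LF pads was not tested. Where leaving either set out turned the direction of a member's printed eWAT arm difference or moved it by a large part, both values are given. The other gene lists and the correlations given below were not examined without these pads.

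The members differed far more between tissues than between arms. Across the 3 arms, all 10 passed the test of liver against eWAT (edgeR's quasi-likelihood test, Benjamini-Hochberg adjusted p under 0.05), with 3 higher and 7 lower in liver. That is close to the background, since 85.5% of the 12735 genes in both tables passed. The size of the difference set Reep6 and Reep5 apart from the other 8: only 4.99% of genes differed as much as Reep6, and 5.25% as much as Reep5. In bulk tissue fewer cells of a type and less RNA per cell cannot be told apart.

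Reep5 and Reep6 are close relatives within the tubule-bending REEP family, and the tissues used them in opposite proportion. Placed on 1 scale for both tissues and divided by exon length, Reep6 stood at 462 ± 39.9 CPM per kilobase in liver (SD, n = 15) and 25.5 ± 5.46 in eWAT (SD, n = 16). Reep5 stood at 6.96 ± 1.38 CPM per kilobase in liver (SD, n = 15) and 122 ± 13.9 in eWAT (SD, n = 16). No liver library overlapped any eWAT library for either gene, which held for every member but Atl3 and Reep4. Reep6 was 18.0-fold higher in liver (log2 difference 4.17 ± 0.09 SE, edgeR adjusted p = 3.72e-27), and Reep5 was 17.2-fold lower (log2 difference -4.10 ± 0.07 SE, edgeR adjusted p = 7.11e-30). Of the sum of both genes per length, Reep5 made up 1.49% ± 0.331 in liver (SD, n = 15) and 82.7% ± 3.5 in eWAT (SD, n = 16). With Reep3 and Reep4 added, Reep6 still made up 93.9% ± 0.766 of the REEP sum in liver (SD, n = 15), and Reep5 made up 73.6% ± 2.99 in eWAT (SD, n = 16).

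**Figure D1:**
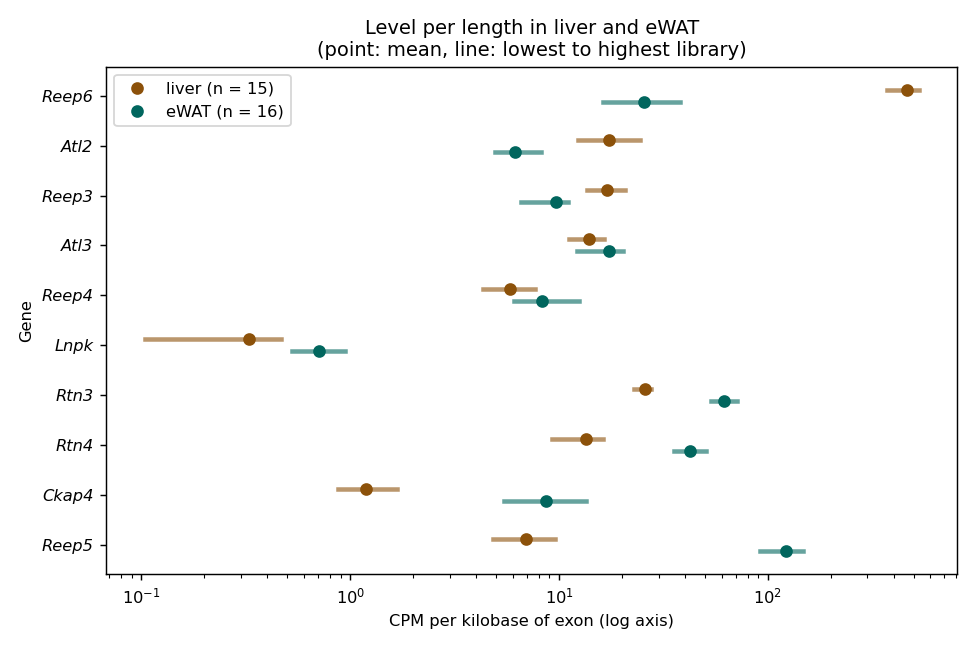
Level of each gene per exon length in liver (15 libraries) and eWAT (16 libraries), as CPM per kilobase on a log axis, with a point at the mean and a line from the lowest to the highest library. Reep6 (462 against 25.5) and Reep5 (6.96 against 122) lie at opposite ends, and the liver and eWAT lines of Atl3 and Reep4 overlap.

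The other members gave smaller tissue differences. Reep3, whose product clears ER from mitotic chromosomes together with that of Reep4, was 1.78-fold higher in liver (log2 difference 0.83 ± 0.07 SE, edgeR adjusted p = 5.38e-13). Reep4 was 1.43-fold lower (-0.51 ± 0.10, adjusted p = 2.38e-05), although its lowest and highest libraries overlapped between tissues. Both reticulons, which hold tubule membrane curved, were lower in liver: Rtn4 3.22-fold and Rtn3 2.37-fold. The tubule-fusing atlastins went opposite ways. Atl2 was 2.84-fold higher in liver (log2 difference 1.5 ± 0.09 SE, edgeR adjusted p = 2.35e-16), and Atl3 was 1.24-fold lower (-0.31 ± 0.06, adjusted p = 2.07e-05). As a result Atl2 made up 55.1% ± 5.06 of the atlastin sum per length in liver (SD, n = 15) and 26.0% ± 2.35 in eWAT (SD, n = 16). Lnpk was 2.15-fold lower in liver, and Ckap4, the sheet spacer, was 7.44-fold lower (log2 difference -2.89 ± 0.11 SE, edgeR adjusted p = 4.49e-21).

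In liver the order of level per length on that shared scale ran from Reep6 at 462 through Rtn3 at 25.7, Atl2 at 17.3, Reep3 at 17, Atl3 at 13.9, Rtn4 at 13.4, Reep5 at 6.96, Reep4 at 5.81 and Ckap4 at 1.19 to Lnpk at 0.327 CPM per kilobase. The means of Atl2 and Reep3 differed by less than the larger SD of the pair, as did those of Atl3 and Rtn4 and those of Reep5 and Reep4. In eWAT the order was Reep5 at 122, Rtn3 at 61.6, Rtn4 at 42.6, Reep6 at 25.5, Atl3 at 17.4, Reep3 at 9.68, Ckap4 at 8.67, Reep4 at 8.31, Atl2 at 6.12 and Lnpk at 0.707 CPM per kilobase. Reep3 and Ckap4, and Ckap4 and Reep4, differed by less than the larger SD there. Exon length here joins all annotated exons of a gene, so a gene expressed as a shorter transcript stands too low in these orders. The shares of sums per length given above carry the same limit. Scaling moved these comparisons: with library totals alone the median of all genes shifted by -0.73 on the log2 scale in liver against eWAT, and 21.3% of the genes called were higher in liver, compared with 49.8% under TMM. No member changed direction under it, but Reep3 stood at a log2 difference of 0.10 and no longer passed (adjusted p = 0.179, edgeR with library totals).

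Exons of Reep3 overlap 941 bases of the opposite-strand gene Gm31763 (11.3% of its exon length), and those of Rtn4 overlap 1284 bases of Eml6 (18.4%). The strand setting of the counting is not given in the sources used here, so reads from these stretches cannot be assigned to 1 gene of each pair.

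Reep5 was the 1 member whose LF livers all stood apart from the other arms. It lies at chr18:34344885-34374070 on the minus strand. In LF livers it stood at 21.2, 18.7, 18.0 and 22.3 CPM, a mean of 20.1 ± 2.0 (SD, n = 4). In HF livers it stood at 16.9, 17.8, 13.7, 15.7 and 16.7 CPM, a mean of 16.1 ± 1.56 (SD, n = 5). In HFLF livers it stood at 11.1, 12.9, 16.7, 12, 13.9 and 14.8 CPM, a mean of 13.6 ± 2.01 (SD, n = 6). Every LF liver was above every HF and every HFLF liver, and the HF and HFLF livers overlapped. These levels rest on 119 to 351 counts per library.

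The lower Reep5 level of HFLF against LF livers is what the genes were chosen on, so its size is given without a test: a log2 difference of -0.57 ± 0.12 SE, or 1.48-fold lower. A difference of that size or larger was found in 4.31% of the 13677 liver genes, and livers of the arms did not overlap, with HFLF lower, in 0.519%. HF against LF uses the same 4 LF livers, and HFLF against HF the same 6 HFLF livers, so neither is independent of that choice. For HF against LF the log2 difference of Reep5 was -0.32 ± 0.12 SE, which missed the threshold (unadjusted p = 0.0162, edgeR adjusted p = 1). In 0.636% of liver genes all HF livers lay below all LF livers, and Reep5 was the member among them. For HFLF against HF the log2 difference was -0.25 ± 0.11 SE (unadjusted p = 0.0335, edgeR adjusted p = 1). With each library left out in turn, the HF against LF difference ranged from -0.36 to -0.26 and that of HFLF against HF from -0.32 to -0.20.

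**Figure D2:**
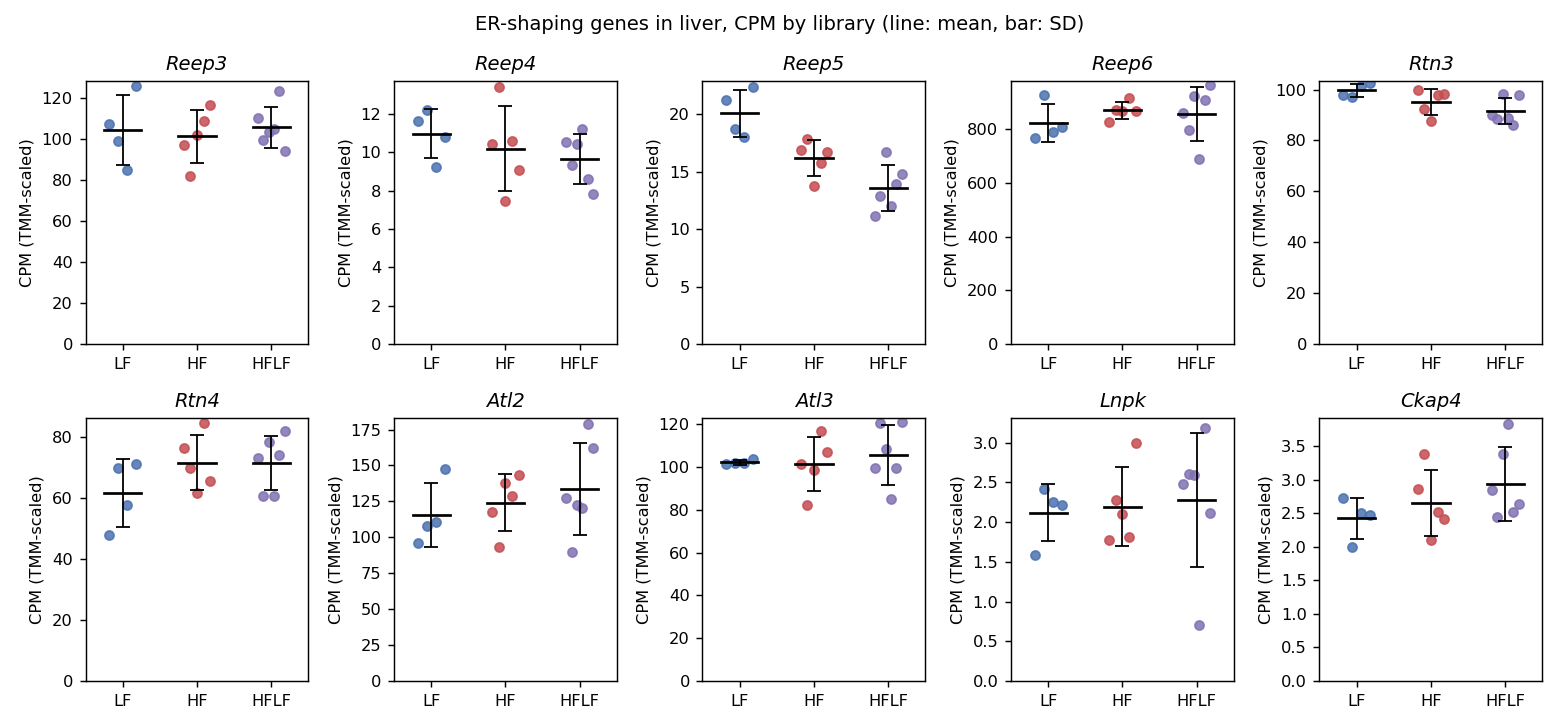
CPM of each of the 10 genes in every liver library by arm (LF 4, HF 5, HFLF 6 libraries), with each vertical axis starting at 0, a line at the mean and a bar of 1 SD. The 4 LF livers of Reep5 (18.0 to 22.3 CPM) lie above all other livers, while the arms of the other 9 genes overlap.

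Another set of transcripts was ordered across the livers the same way. The summed smooth muscle markers (Acta2, Myh11 and Tagln, with Cnn1 not analysed here) stood at 6.95 to 8.49 CPM in LF, 4.70 to 6.42 in HF and 3.48 to 5.32 in HFLF. LF livers were again above all others in this sum. Each of the 3 markers alone overlapped between LF and HF livers, Acta2 at 2.41 to 3.37 against 1.39 to 2.57 CPM. Acta2, the smooth muscle actin, averaged 2.70, 1.99 and 1.31 CPM in these arms. The part of these cells in the Reep5 values was not tested. The hepatocyte sum (6 of 6 markers) stood at 81069 to 89238 CPM in LF, 83999 to 108165 in HF and 76951 to 111572 in HFLF, so that it was above every LF liver in 4 of 5 HF and 5 of 6 HFLF livers. Alb made up most of this sum, averaging 57894, 68451 and 67934 CPM in LF, HF and HFLF livers. Cyp2e1 was also lowest in LF (5580 against 7013 and 7305 CPM), while Apoa1 was not (10657 against 12076 and 10468 CPM). The part of the hepatocyte sum in the Reep5 values was not tested either. Further cell type sums overlapped between arms: stellate or fibroblast markers (6 of 6 measured) at 195 to 248 CPM in LF, 177 to 287 in HF and 163 to 271 in HFLF, and endothelial markers (5 of 5) at 141 to 226, 147 to 201 and 140.0 to 245 CPM. Of the adipocyte markers, 3 of 6 were measured, at 11.6 to 38.1 CPM in LF, 13.6 to 29.5 in HF and 12.7 to 22 in HFLF. Cholangiocyte markers (5 of 5) summed to 42.3 to 368.9 CPM in LF, 32.6 to 82.2 in HF and 31.2 to 110.5 in HFLF. Macrophage markers (5 of 5) summed to 113.6 to 312.9, 108.9 to 270.9 and 113.4 to 216.5 CPM. LF liver 1 had the highest cholangiocyte sum and LF liver 6 the highest macrophage sum. These were also the livers highest in Reep5, and the part of either set in it was not tested.

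In eWAT Reep5 did not follow that order. The LF pads stood at 472.8, 353.6, 456.7 and 543 CPM, a mean of 457 ± 78.3 (SD, n = 4). The HF pads stood at 427, 485, 431, 457, 402 and 469.9 CPM, a mean of 445 ± 30.8 (SD, n = 6). The HFLF pads stood at 531, 581, 441, 479, 534 and 515 CPM, a mean of 513 ± 48.5 (SD, n = 6). The 3 arms overlapped, and the lowest pad was an LF pad. HFLF against LF gave a log2 difference of 0.17 ± 0.11 SE, without a test, a size that 40.7% of the 15987 eWAT genes reached. Without LF pad 3 it was 0.06, and without LF pad 6 it was 0.26. HF against LF gave -0.04 ± 0.11 (edgeR adjusted p = 0.937), which ranged from -0.14 without LF pad 3 to 0.06 without LF pad 6, and was -0.12 without the pads rich in testis transcripts and 0.03 without those rich in B cell transcripts. HFLF against HF gave 0.21 ± 0.10 (edgeR adjusted p = 0.537).

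Whether an arm difference itself differed between tissues was tested as an interaction. For HFLF against HF, the liver value of Reep5 minus its eWAT value was -0.45 ± 0.14 SE on the log2 scale (unadjusted p = 0.00348, edgeR adjusted p = 0.943), and 9.36% of the 12735 shared genes had an interaction as large. It ranged from -0.51 to -0.39 with each library left out in turn. For HF against LF the value was -0.29 ± 0.15 (edgeR adjusted p = 0.956). The largest interaction of a member in HF against LF was that of Reep6, at 0.47 ± 0.20 (unadjusted p = 0.0276, edgeR adjusted p = 0.956), with a range of 0.40 to 0.58 when each library was left out. Over 6 other settings, among them leaving out the pads rich in testis or B cell transcripts, the Reep6 value was 0.35 to 0.60. Over the same settings the Reep5 value for HFLF against HF was -0.50 to -0.37. No gene passed either interaction test in edgeR, nor in limma voom with a replicate block, while 4.88% and 4.94% of genes had an unadjusted p under 0.05 in edgeR for HF against LF and HFLF against HF. The same livers and pads chose Reep5, so its interactions are not independent of the choice.

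Reep6, the main REEP gene of liver by length, was level across its arms there. It ranged from 765.5 to 927 CPM in LF (median 799), from 828 to 916 in HF (median 869) and from 690.5 to 965 in HFLF (median 884). The log2 difference was 0.08 ± 0.10 SE for HF against LF and -0.02 ± 0.09 for HFLF against HF (edgeR adjusted p = 1 for both). In eWAT the LF pads stood at 66.3, 94.8, 98.1 and 90.9 CPM and the HF pads at 71.1, 49.3, 74.9, 64.6, 61.1 and 76.8 CPM. The HFLF pads stood at 91.0, 66.0, 83.2, 66.4, 86.5 and 117 CPM. All but 1 of the LF pads were above every HF pad, and HFLF pads spread over both. Reep6 in eWAT gave a log2 difference of -0.40 ± 0.16 SE for HF against LF (unadjusted p = 0.0231, edgeR adjusted p = 0.689) and 0.36 ± 0.14 for HFLF against HF (unadjusted p = 0.0234, edgeR adjusted p = 0.482). Without the 4 pads rich in testis transcripts the HF against LF value was -0.28, and without the 3 rich in B cell transcripts -0.52.

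Reep3 and Reep4 showed no arm difference beyond their spread. Reep3 averaged 104.5 ± 17.2 (SD, n = 4), 101.5 ± 13 (SD, n = 5) and 106 ± 10.1 CPM (SD, n = 6) in LF, HF and HFLF livers, and 90.8 ± 15.3 (SD, n = 4), 102 ± 8.28 (SD, n = 6) and 100.3 ± 11.1 CPM (SD, n = 6) in the pads. Its HF against LF difference in eWAT, 0.17 ± 0.11, was -0.04 without the 4 pads rich in testis transcripts. Reep4 averaged 11 ± 1.29 (SD, n = 4), 10.2 ± 2.19 (SD, n = 5) and 9.64 ± 1.29 CPM (SD, n = 6) in liver, with a log2 difference of -0.18 ± 0.15 SE in HFLF against LF. In the pads it ranged from 17.8 to 35.8 CPM, and its arms overlapped.

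Of the reticulons, Rtn3 varied least between livers of all 10 members, with a highest library 1.19 times the lowest, against 1.77 times for Rtn4. Rtn3, an ER-phagy receptor in its long form, stood at 97.8, 97.1, 101.4 and 102.5 CPM in LF livers. The HF livers stood at 100, 92.2, 87.6, 97.7 and 98.2 CPM, and the HFLF livers at 89.9, 88.5, 98.3, 88.7, 86.0 and 98.0 CPM. The arm means were 99.7 ± 2.69 (SD, n = 4), 95.1 ± 5.12 (SD, n = 5) and 91.6 ± 5.27 CPM (SD, n = 6), and the LF and HFLF livers overlapped through 2 HFLF livers above the lowest LF liver. Its log2 differences were -0.07 ± 0.07 SE for HF against LF and -0.06 ± 0.06 for HFLF against HF (edgeR adjusted p = 1 for both). In eWAT Rtn3 averaged 357.5 ± 23.7 (SD, n = 4), 370.4 ± 14.7 (SD, n = 6) and 405 ± 26.2 CPM (SD, n = 6), so that its HFLF mean was the lowest of the arms in liver and the highest in eWAT. The interaction of HFLF against HF with tissue was -0.17 ± 0.08 (unadjusted p = 0.0493, edgeR adjusted p = 1). Rtn4, known as Nogo in neurons, averaged 61.6 ± 11.1 (SD, n = 4), 71.5 ± 8.99 (SD, n = 5) and 71.4 ± 8.91 CPM (SD, n = 6) in liver. Its log2 difference for HF against LF was 0.22 ± 0.13 SE (edgeR adjusted p = 1). In the pads its means were 362 ± 47.3 (SD, n = 4), 345 ± 37.1 (SD, n = 6) and 389.9 ± 32.9 CPM (SD, n = 6).

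Of the atlastins, Atl2 averaged 116 ± 22.4 (SD, n = 4), 124 ± 19.8 (SD, n = 5) and 133.5 ± 32.1 CPM (SD, n = 6) in liver, and 66.7 ± 2.85 (SD, n = 4), 72.6 ± 7.66 (SD, n = 6) and 80.4 ± 14.1 CPM (SD, n = 6) in eWAT. The mean rose in neither tissue beyond the test: HF against LF was 0.10 ± 0.18 SE in liver (edgeR adjusted p = 1) and 0.12 ± 0.12 in eWAT (adjusted p = 0.777). HFLF against LF, given without a test, was 0.21 ± 0.17 in liver and 0.27 ± 0.12 in eWAT. Atl3 was even in LF livers, at 101 to 104 CPM, and spread from 82.4 to 117 in HF and from 84.9 to 121 CPM in HFLF. Its log2 difference for HF against LF was -0.01 ± 0.11 SE in liver and 0.12 ± 0.10 in eWAT, and the eWAT value was -0.03 without the 4 pads rich in testis transcripts.

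Lnpk was the least abundant member per length. It gave 7 to 41 counts per liver library, or 0.706 to 3.19 CPM, and averaged 2.12 ± 0.363 (SD, n = 4), 2.19 ± 0.494 (SD, n = 5) and 2.28 ± 0.844 CPM (SD, n = 6) in LF, HF and HFLF. At this depth its SE in liver was 0.27 to 0.29 on the log2 scale, so a difference of the size of that of Reep5 in HF against LF was not detectable for it. In eWAT it averaged 7.59 ± 1.93 (SD, n = 4), 8.64 ± 1.17 (SD, n = 6) and 7.47 ± 0.826 CPM (SD, n = 6). Its HF against LF value there was 0.18 ± 0.16, but -0.06 without the pads rich in testis transcripts and 0.43 without those rich in B cell transcripts.

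Ckap4, the sheet protein, had its lowest arm mean in HFLF pads and its highest in HFLF livers. In eWAT the LF pads stood at 47.1, 51.3, 25.5 and 33.8 CPM and the HF pads at 31.1, 43.6, 30.3, 30.6, 37.5 and 37.1 CPM. The HFLF pads stood at 26.5, 27.5, 20.5, 36.7, 23.1 and 24.4 CPM. All HFLF pads but 1 lay below every HF pad, and the LF pads, at 25.5 to 51.3 CPM, overlapped both other arms. HFLF against HF gave a log2 difference of -0.41 ± 0.17 SE (unadjusted p = 0.0252, edgeR adjusted p = 0.484), and -0.30 without the pads rich in testis transcripts. HFLF against LF gave -0.57 ± 0.18, without a test. The macrophage markers (4 of 5 measured, Clec4f not analysed here) summed to 528 to 877 CPM in LF pads. They summed to 491 to 846 CPM in HF and 356 to 569 CPM in HFLF pads. The stellate or fibroblast markers (6 of 6 measured) summed to 2040 to 5199 CPM in LF, 2040 to 2952 in HF and 1613 to 2810 in HFLF pads. The part of either set in the Ckap4 values was not tested. In liver Ckap4 averaged 2.42 ± 0.303 (SD, n = 4), 2.65 ± 0.488 (SD, n = 5) and 2.94 ± 0.552 CPM (SD, n = 6). The interaction with tissue for HFLF against HF was 0.57 ± 0.25 (unadjusted p = 0.0323, edgeR adjusted p = 1).

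**Figure D3:**
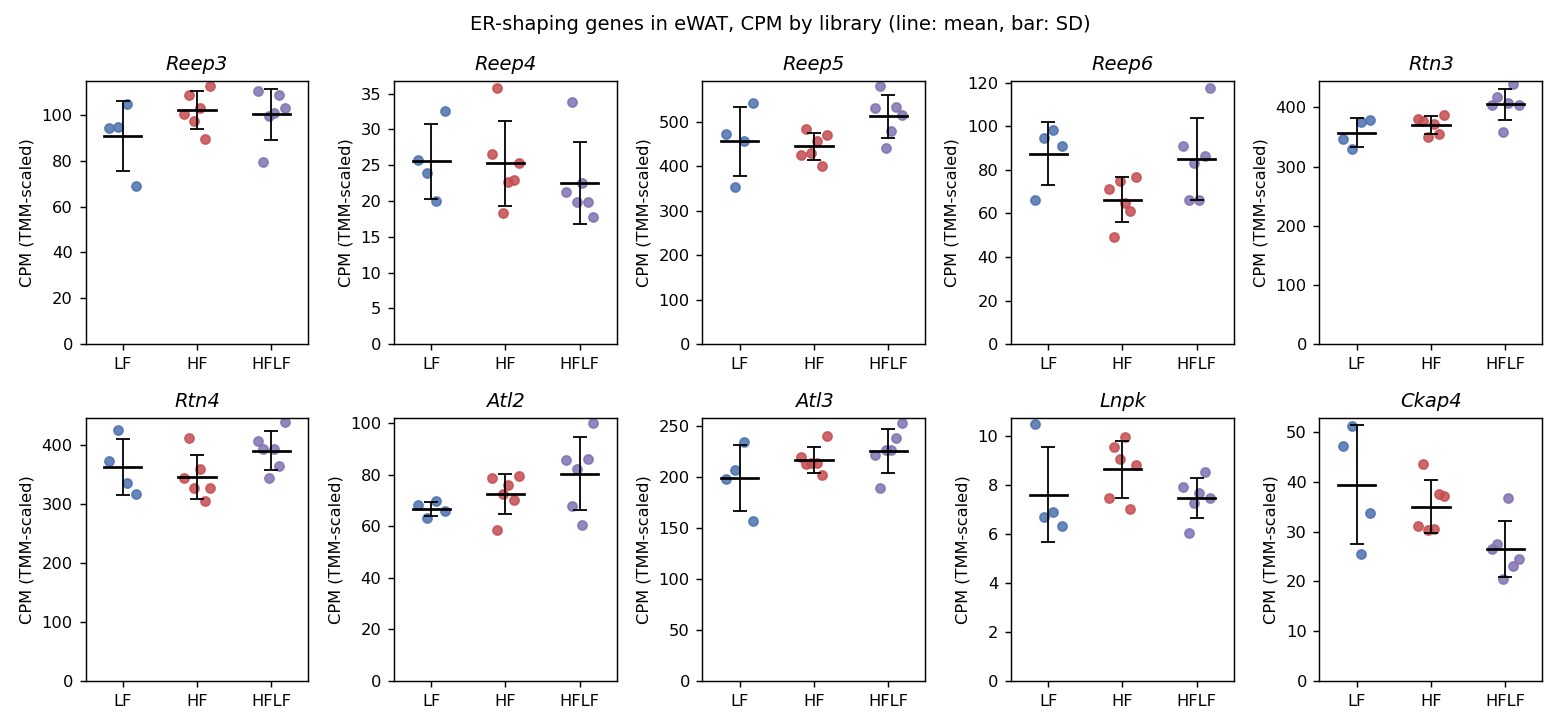
CPM of each of the 10 genes in every eWAT library by arm (LF 4, HF 6, HFLF 6 libraries), with each vertical axis starting at 0, a line at the mean and a bar of 1 SD. Reep5 spans 354 to 581 CPM with all arms overlapping, and 5 of the 6 HFLF pads of Ckap4 lie below the lowest HF pad at 30.3 CPM.

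Counted together, no member passed the adjusted threshold in any comparison of arms with edgeR, where 0% of all genes passed in each. At an unadjusted p under 0.05 the liver held 1 of 10 members for HF against LF (3.6% of all liver genes) and 1 for HFLF against HF (1.86%), Reep5 both times. These comparisons share livers with the one Reep5 was chosen on, so the liver counts are no independent support. Without Reep5 no member reached that p in liver. In eWAT 1 of 10 members reached it for HF against LF (7.04% of all genes), Reep6, and 3 for HFLF against HF (9.3%), Reep5, Reep6 and Ckap4. The eWAT values of Reep5 also entered its choice. For HFLF against LF no count of members is given, since the choice of genes used it. There 5.47% of all liver genes and 10.8% of all eWAT genes reached that p. DESeq2 called 1 liver gene for HF against LF, 11 for HFLF against LF and 0 for HFLF against HF. Among these the 1 member was Reep5 in HFLF against LF, the comparison it was chosen on, so that call is no independent support. DESeq2 called 12, 69 and 52 eWAT genes in the same order, with 0 members, and limma voom called 0 genes in each. The median log2 difference of the 10 members was 0.02 for HF against LF in liver and 0.02 in eWAT, and 0.03 and 0.09 for HFLF against HF.

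**Figure D4:**
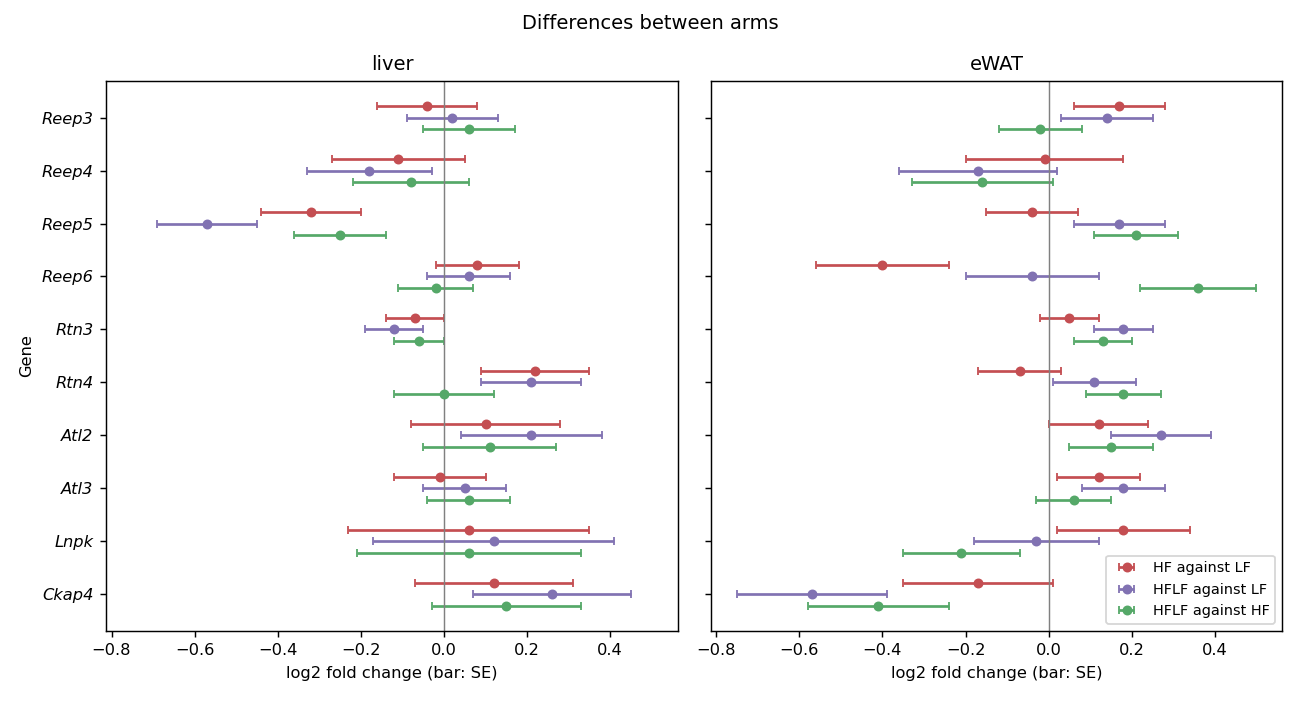
Log2 differences between arms for each gene in liver (left) and eWAT (right), with bars of 1 SE, for HF against LF, HFLF against LF and HFLF against HF. Reep5 lies left of 0 in all 3 liver comparisons (-0.32, -0.57 and -0.25), and Ckap4 lies furthest left in eWAT for HFLF against LF (-0.57).

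Of 31 other genes of ER shaping and ER-phagy, 28 were measured in liver and 29 in eWAT, and edgeR called none in any comparison of arms. In liver 12 were higher and 16 lower in HF than LF (median log2 difference -0.01), with 0 at an unadjusted p under 0.05, and 15 were higher and 13 lower in HFLF than HF (median 0.01), again with 0. Of all liver genes 3.6% and 1.86% reached that p in edgeR. The largest liver differences for HF against LF were those of the low-level genes Rtn2 (-0.49 ± 0.45 SE) and Reep1 (-0.43 ± 0.35) and of Esyt2 (0.24 ± 0.13), a tether between ER and plasma membrane. For HFLF against LF Rtn2 stood at -1.17 ± 0.48 from a mean level of 0.583 CPM (edgeR adjusted p = 0.862). In eWAT 18 of 29 had a higher mean in HF than LF (median 0.06, 1 at an unadjusted p under 0.05) and 21 of 29 in HFLF than HF (median 0.06, 3 at that p), where 49.1% and 50.3% of all genes were higher. Of all eWAT genes 7.04% and 9.3% reached that p in edgeR, so 3 of 29 is near the background. Esyt2 gave 0.38 ± 0.13 SE for HF against LF (unadjusted p = 0.01, edgeR adjusted p = 0.689) and 0.43 ± 0.13 for HFLF against LF (edgeR adjusted p = 0.282). For HFLF against HF in eWAT the ER-phagy receptor Retreg1 stood at -0.62 ± 0.30 and Reep2 at -0.58 ± 0.23 (edgeR adjusted p = 0.546 and 0.484). Their eWAT means were low, at 4.43 and 1.84 CPM. Rtn2 stood at 0.44 ± 0.21 and Reep1 at 0.43 ± 0.20 (edgeR adjusted p = 0.527 and 0.518). The 3 genes under the unadjusted threshold there were Rtn2, Reep1 and Reep2.

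Between tissues, 15 of the 28 measured in both were higher and 12 lower in liver by edgeR, and Ccpg1 did not pass (adjusted p = 0.0891). That is near the background, in which 85.5% of shared genes passed. The counts by direction hold under TMM, with a list median of 0.30. They were not examined with library totals alone, which shifted the median of all genes by -0.73. The reticulophagy family was higher in liver in all 3 members: Retreg1 by a log2 difference of 4.47 ± 0.17 SE (adjusted p = 1.93e-20), Retreg2 by 2.14 ± 0.05 and Retreg3 by 1.09 ± 0.04. Rtn2 (-5.38 ± 0.19), Esyt1 (-3.44 ± 0.07), Reep1 (-2.85 ± 0.16) and Rtn1 (-2.19 ± 0.17) were lower in liver.

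The translocon and rough ER list (24 genes for import and first processing of secreted proteins) was lower in most of its members in liver, though edgeR called none. In HF against LF 3 were higher and 21 lower (median log2 difference -0.09), in HFLF against LF 1 and 23 (median -0.21), and in HFLF against HF 1 and 23 (median -0.11). Of all liver genes 49.4%, 50.1% and 50.9% were higher in these comparisons, which share libraries. At an unadjusted p under 0.05 stood 0, 4 and 2 of the 24 in liver (3.6%, 5.47% and 1.86% of all genes) and 1, 4 and 2 in eWAT (7.04%, 10.8% and 9.3%), and no test of the list as a whole was made. In eWAT 10, 8 and 10 of 24 were higher, with medians of -0.05, -0.05 and -0.03. Between tissues 21 were higher in liver and 3 lower by edgeR, where 85.5% of all shared genes passed, 5427 of them higher and 5465 lower. These directions hold under TMM. With library totals alone the median of all genes shifted by -0.73, more than the list median of 0.55. The list was not examined under that scaling.

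Among all liver genes, those whose level followed that of Reep5 most closely over the 15 libraries were Arpc1b (Pearson r = 0.88 of log2 CPM), a subunit of the actin-branching Arp2/3 complex, Cnot9 (0.83), of the CCR4-NOT deadenylase, Dip2a (0.80), Ttyh3 (0.79) and Calm2 (0.78), a calmodulin gene. The lowest were Znfx1 (-0.80), Abcc6 (-0.79) and Cds2 (-0.78). These are the ends of a ranking of 13666 genes and a description, and the livers share the arm differences of Reep5. With arm means subtracted, r was 0.57 for Arpc1b and 0.78 for Cnot9, and Cnot9 was the 1 gene of the 5 still among the top 5. Arpc1b averaged 69.1, 57.8 and 52.1 CPM in LF, HF and HFLF livers. Rtn3 ranked 6 in the list (r = 0.77), while the other 8 members lay between r = 0.38 for Reep4 and -0.20 for Ckap4.

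Within arms, Reep5 and Rtn3 also varied together in liver, but not beyond the correction. With arm means subtracted, r was 0.59 (permutation p = 0.0457, adjusted over 9 pairs 0.411) and rho 0.57 (permutation p = 0.0466, adjusted 0.419), and r was 0.60 without the 2 livers farthest from the median of Reep5. Over all 15 livers the next highest r to Reep5 was 0.34, that of Rtn4 (permutation p = 0.236, adjusted 0.756). Which member stood closest depended on those 2 livers: without them r was 0.79 for Ckap4 (0.33 with them) and 0.59 for Reep4 (0.20 with them). In eWAT the same pair gave r = 0.75 (permutation p = 0.00267, adjusted over 90 pairs 0.0603) and rho = 0.68 (permutation p = 0.0123, adjusted 0.332), with r = 0.68 without the 2 farthest pads.

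All 45 pairs of members were compared in each tissue, 90 in all. In liver 0 passed, and 33 of 45 had a positive r (median 0.18). In eWAT 2 passed for Pearson's r and 0 for Spearman's rho. Reep3 and Atl3 gave r = 0.89 (permutation p = 0.00087, adjusted 0.0468) and rho = 0.64 (permutation p = 0.0185, adjusted 0.332), and r = 0.60 without the 2 farthest pads. Reep6 and Atl2 gave r = 0.80 (permutation p = 0.00104, adjusted 0.0468) and rho = 0.64 (permutation p = 0.0136, adjusted 0.332), also with r = 0.60 without the 2 farthest pads. Reep6 and Rtn4 in liver gave r = 0.70 (permutation p = 0.00268, adjusted 0.0603) and rho = 0.70 (permutation p = 0.00679, adjusted 0.332). Rtn3 and Atl3, neighbours on chromosome 19 with 10758 bases between them, gave r = 0.48 in liver (permutation p = 0.14, adjusted 0.434) and r = -0.03 in eWAT (permutation p = 0.942, adjusted 0.992).

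**Figure D5:**
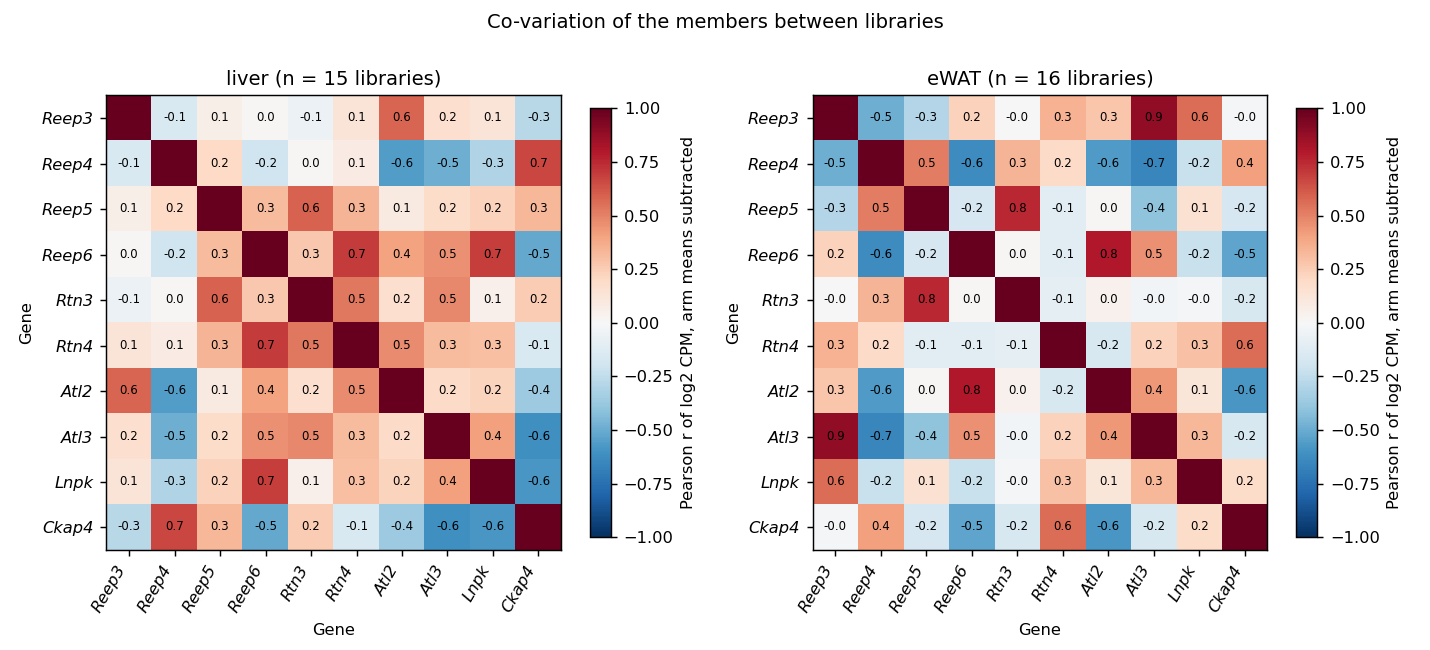
Pearson r of log2 CPM between each pair of genes after subtracting arm means, over 15 liver libraries (left) and 16 eWAT libraries (right), coloured from -1 to 1. Reep5 with Rtn3 is positive in both tissues (0.59 in liver and 0.75 in eWAT), and Reep3 with Atl3 is high in eWAT (0.89).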

How the data were processed

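Whole-tissue RNA-seq counts of 15 livers and 16 epididymal fat pads were analysed. The authors deposited raw counts per gene, 1 table per tissue, with genes of low CPM already removed according to the tables' names. STAR as the aligner and GRCm38.p6 as the build are named per the submitters' processing notes. No source used here gives the tool that counted reads, its annotation or its strand setting. Gene symbols, exon lengths and coordinates come from GENCODE M21. The deposited RPKM tables were not used.

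The 10 genes and all lists were chosen with earlier results of these data known. Members are named in every comparison. Other ER-shaping genes are named where they passed the test or were among the 3 largest differences in a direction, and the 5 genes with the highest and the 3 with the lowest Pearson r to Reep5 are named. Some eligible names are given in counts only.

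Counts were TMM-scaled and tested with edgeR 4.0.16 in R 4.3.3 (glmQLFit and glmQLFTest, robust), with 1 fit per tissue over its 3 arms (12 and 13 residual degrees of freedom) and 1 fit over both tissues for the 12735 shared genes. p-values were adjusted by Benjamini-Hochberg over all genes of a fit, with a threshold of 0.05, and filterByExpr removed 0 genes. SE is the absolute log2 difference divided by the square root of F. Log2 CPM used a prior count of 2. Correlations were tested two-sided by 100000 permutations of libraries within arms. Alternatives were size factors, count filters, DESeq2 1.42.0, limma 3.58.1 (voom), fits of the compared arms alone, a replicate block, and leaving out libraries. The scripts were tested on simulated counts for HFLF against LF. Of 1.5-fold changes 24% were recovered in liver and 36% in eWAT, and of 2-fold changes 76% and 70%. Arm differences as small as those printed here could thus be missed for any gene. No replicate pair of an arm agreed within sampling noise (lowest chi-square per degree of freedom 17.2 in liver and 10.9 in eWAT).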

Additional observations from a re-analysis of the deposited data

Results flagged for a closer look

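Each member was checked in each arm and tissue for a library far from the others, by Dixon's gap over range, and 4 of 60 groups held one. Chance gives about 1 in 20 groups. Lnpk was low in HFLF liver 4, at 0.706 CPM from 7 counts, against 2.11 to 3.19 CPM in the other HFLF livers. Lnpk was high in LF pad 2, at 10.5 CPM, against 6.33 to 6.89 CPM in the other LF pads, and that pad is 1 of the 3 rich in B cell transcripts. In HFLF pad 2 Reep3 was low, at 79.4 CPM against 99.5 to 110.3, and Reep4 was high, at 33.8 CPM against 17.8 to 22.5.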

How the results depend on the processing

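With DESeq2 the number of genes called was 1 for HF against LF and 11 for HFLF against LF in liver, and 12, 69 and 52 for HF against LF, HFLF against LF and HFLF against HF in eWAT, where edgeR called 0 in each. The members called for HFLF against LF in liver went from 0 to 1 with DESeq2, the comparison the choice of genes used. With each library left out in turn, 0 to 13 genes were called for HFLF against LF in eWAT, the 13 without LF pad 5, and 0 in every other comparison of arms. With the replicate number as a block, 1 gene was called for HFLF against LF in liver, 0 in the other arm comparisons, and 0 members in any. The replicate numbers gave no clear pairing: 5 of 13 same-number pairs of livers and 7 of 14 of pads correlated over 0.1. Best with their own number correlated 5 of 14 livers and 5 of 16 pads. Of the liver and pad pairs of 1 arm and number, 2 of 14 correlated over 0.1. Such correlations cannot show whether a liver and a pad came from 1 mouse. Scaling by library totals alone, an alternative chosen after seeing the data, took Reep3 in liver against eWAT below the threshold (log2 difference 0.10, adjusted p = 0.179, edgeR), and all 10 members passed under the other alternatives. Without the 4 pads rich in testis transcripts the tissue difference of HF against LF for Reep3 was -0.02. In liver the correlation of Reep5 with Atl3 was -0.24 and with Lnpk -0.12 without the 2 farthest livers, where it was 0.79 with Ckap4 and 0.59 with Reep4, and with arm means kept it was -0.04 with Reep3, -0.17 with Rtn4, -0.18 with Atl2 and -0.20 with Ckap4. Of the 5 genes most like Reep5, 2 were shared with a ranking by Spearman's rho. The cause of these shifts was not tested. Small arm differences could be missed for any member, as the simulated counts showed. Lnpk and Ckap4 in liver rest on few counts, which further limits what could be detected for them.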
